A study of Mus musculus with 22 samples.

Results

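The stathmins and the microtubule-associated proteins (MAPs) described here are 10 genes, Stmn1, Stmn2, Stmn3, Stmn4, Map1a, Map1b, Map2, Map4, Mapt and Dcx. They were picked by symbol from the 23453 genes of the count table, with the levels of these cells already in view, so that every difference among them is given as a description. The libraries each came from 1 mouse cortical astrocyte in primary culture, 22 in all. The calcium signal of each cell was recorded during exposure to ethanol (EtOH) and the cell was then collected for RNA sequencing. By that signal 6 cells were S-type (sustained), 6 T-type (transient), 5 M-type (mixed) and 5 NR (no response). The study asked which transcripts go with which calcium response. The labels set the types apart by the response alone, and whether they also differ in animal, culture or day is not given. All cells came from the cortex of C57BL/6 pups aged postnatal day 0 to 1, from cultures shaken and given 10 µM cytosine arabinoside for 12 h, kept without serum for 24 h, exposed to EtOH and, at the end of the recording, to 100 µM ATP. Since no label ties a cell to an animal or a culture, a type stands for a single sample, and the types could not be tested against each other. The values below are therefore levels, ratios and their counting error, and the spread over cells is given beside them.

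Microtubules are hollow polymers of tubulin that grow and shrink from their ends. Stathmins are small phosphoproteins that hold free tubulin dimers and favour shrinkage, whereas the structural MAPs bind along the wall of the polymer and favour its stability. Stmn1 is found in many dividing cells, and Stmn2, Stmn3, Stmn4, Map1a, Map1b, Map2, Mapt and Dcx are best known from neurons, in growing axons, dendrites or migrating young cells. Map4 is the member of the tau family that is known from most cell types outside neurons. Astrocytes use microtubules for transport along their processes and for division.

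A cell had between 2937786 and 22131076 counted reads. Counts were divided by a size factor per cell (the median ratio to the geometric mean over the 3670 genes read in every cell), and by level is meant the mean of these normalized counts over the cells of a type. The size factors lay between 0.183 and 1.56 in T-type and between 0.923 and 2.31 in the other types. The astrocyte label was set beside 14 markers, all of which were read. Their summed share of the reads was 0.546% to 1.83% among S-type, 0.946% to 2.25% among T-type, 1.19% to 2.47% among M-type and 0.563% to 2.34% among NR cells. Vim had the most of these reads (3276534), before Fabp7 (509842) and Slc1a3 (359681), and Gfap ran from 2 reads in T-type cell 5 to 19474 in NR cell 2. Of 9 mural and fibroblast markers 8 had a read, and Acta2 (539975 reads) and Tagln (166823) were read in all 22 cells. The share of that list reached 0.944% in S-type cell 5 and was lowest in M-type cell 4 (0.00342%). The summed shares thus do not settle the identity of each cell. Of 18 neuron markers 16 had a read in some cell, and Slc17a7 and Slc32a1, the transporters that load glutamate and GABA into vesicles, had none. Their summed share was 0.00272% to 0.0212% among S-type, 0.00334% to 0.0171% among T-type, 0.00277% to 0.0161% among M-type and 0.00441% to 0.0463% among NR cells. Most of these reads fell on Uchl1, Gap43 and Tubb3, which encode a ubiquitin hydrolase, a growth cone protein and a tubulin.

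The stathmins descend from a common gene, and the longest exact run of bases that 2 of them share is given here. The longest run of bases that transcripts of Stmn1 and Stmn2 share was 43 bases long, lies in a single coding exon of each gene (GRCm38, chr4:134472879-134472921 and chr3:8554867-8554909, both on the plus strand), and reads as follows.
shared run: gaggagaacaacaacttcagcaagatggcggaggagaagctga
It is shorter than a sequenced read of 75 bases. How well trimmed reads, or reads mapped with mismatches, can be told apart between the 2 genes was not tested. Over all 45 pairs of members the longest shared run was 51 bases, between Stmn2 and Dcx and made almost wholly of a GA repeat, and the median was 15 bases.

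Start regions of 6 members were at hand from RefSeq (GRCm38.p6), each 300 bases long, from 250 before the start to 50 after it. They are shown for Map4 and Map1b, which were read in every cell, and for Dcx, which was read in hardly any. Capitals mark TATAAA, the core of the TATA box, and GGGCGG, the GC box bound by Sp1, on either strand (TTTATA and CCGCCC when read on the other one). They were marked by sequence alone, at any distance from the start, and whether they act as such boxes was not tested. TATAAA stands in 13.6% and GGGCGG in 35.7% of the 32851 start regions of this length, and the 2 motifs do not overlap each other.
Map4, chr9:109931524-109931823, plus strand: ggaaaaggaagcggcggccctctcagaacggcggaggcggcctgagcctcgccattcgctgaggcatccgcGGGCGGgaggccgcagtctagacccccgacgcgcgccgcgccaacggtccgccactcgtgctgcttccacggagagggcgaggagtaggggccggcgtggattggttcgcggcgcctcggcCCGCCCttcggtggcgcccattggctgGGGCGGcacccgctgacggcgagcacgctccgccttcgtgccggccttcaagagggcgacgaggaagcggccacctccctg
Map1b, chr13:99516553-99516852, minus strand: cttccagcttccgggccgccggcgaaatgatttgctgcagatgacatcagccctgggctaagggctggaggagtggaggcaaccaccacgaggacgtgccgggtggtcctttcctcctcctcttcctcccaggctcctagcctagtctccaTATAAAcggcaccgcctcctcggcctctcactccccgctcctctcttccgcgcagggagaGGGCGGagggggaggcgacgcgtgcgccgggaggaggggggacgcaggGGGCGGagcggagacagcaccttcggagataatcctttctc
Dcx, chrX:143933170-143933469, minus strand: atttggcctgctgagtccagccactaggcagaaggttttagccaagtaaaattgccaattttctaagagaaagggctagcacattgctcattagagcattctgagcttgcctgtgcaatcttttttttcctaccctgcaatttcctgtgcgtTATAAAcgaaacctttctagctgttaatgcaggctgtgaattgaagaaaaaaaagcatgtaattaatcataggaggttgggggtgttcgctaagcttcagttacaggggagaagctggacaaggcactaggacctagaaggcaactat
The Map4 region held 3 GC boxes, no TATAAA and 42 CpG pairs, and 97.0% of all start regions held fewer. A further start region of Map4 (chr9:110051771-110052070, plus strand) held neither motif and 5 CpG pairs. The Map1b region held 1 TATAAA, which began at base 152 of the 300, 2 GC boxes and 23 CpG pairs. The Dcx region held 1 TATAAA, no GC box and 3 CpG pairs, where the median region held 7. Of the other start regions, Map1a had 4 GC boxes and 27 CpG pairs, Map2 had 5 and 37, and Stmn3 had 0 and 6.

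Map1b, Map2 and Map4 were read in all 22 cells, Stmn1 and Map1a in 21, Stmn2 in 20, Mapt in 18, Stmn3 in 14, Stmn4 in 8 and Dcx in 2. Of the 9 members that passed the filter of a read in at least 5 cells, 6 were read in at least 20 cells, a share to be set beside 51.9% of all 12719 genes that passed. Per kb of exonic sequence the mean level over the 22 cells ran from Stmn1 (860 normalized counts per kb) through Stmn2 (546), Map1b (429), Map4 (175.7), Map2 (84.0), Stmn3 (63.2), Map1a (25.9), Mapt (16.9) and Stmn4 (11.7) to Dcx (0.00473). The order was the same when the longest annotated transcript served as the length. Stmn1 led the 10 genes per kb in 6 cells, Stmn2 in 6, Map1b in 6, Stmn3 in 2 and Map4 in 2, and with the longest transcript as length Stmn1 led in 6, Stmn2 in 7, Map1b in 3, Map4 in 6 and Stmn3 in 0.

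**Figure D1:**
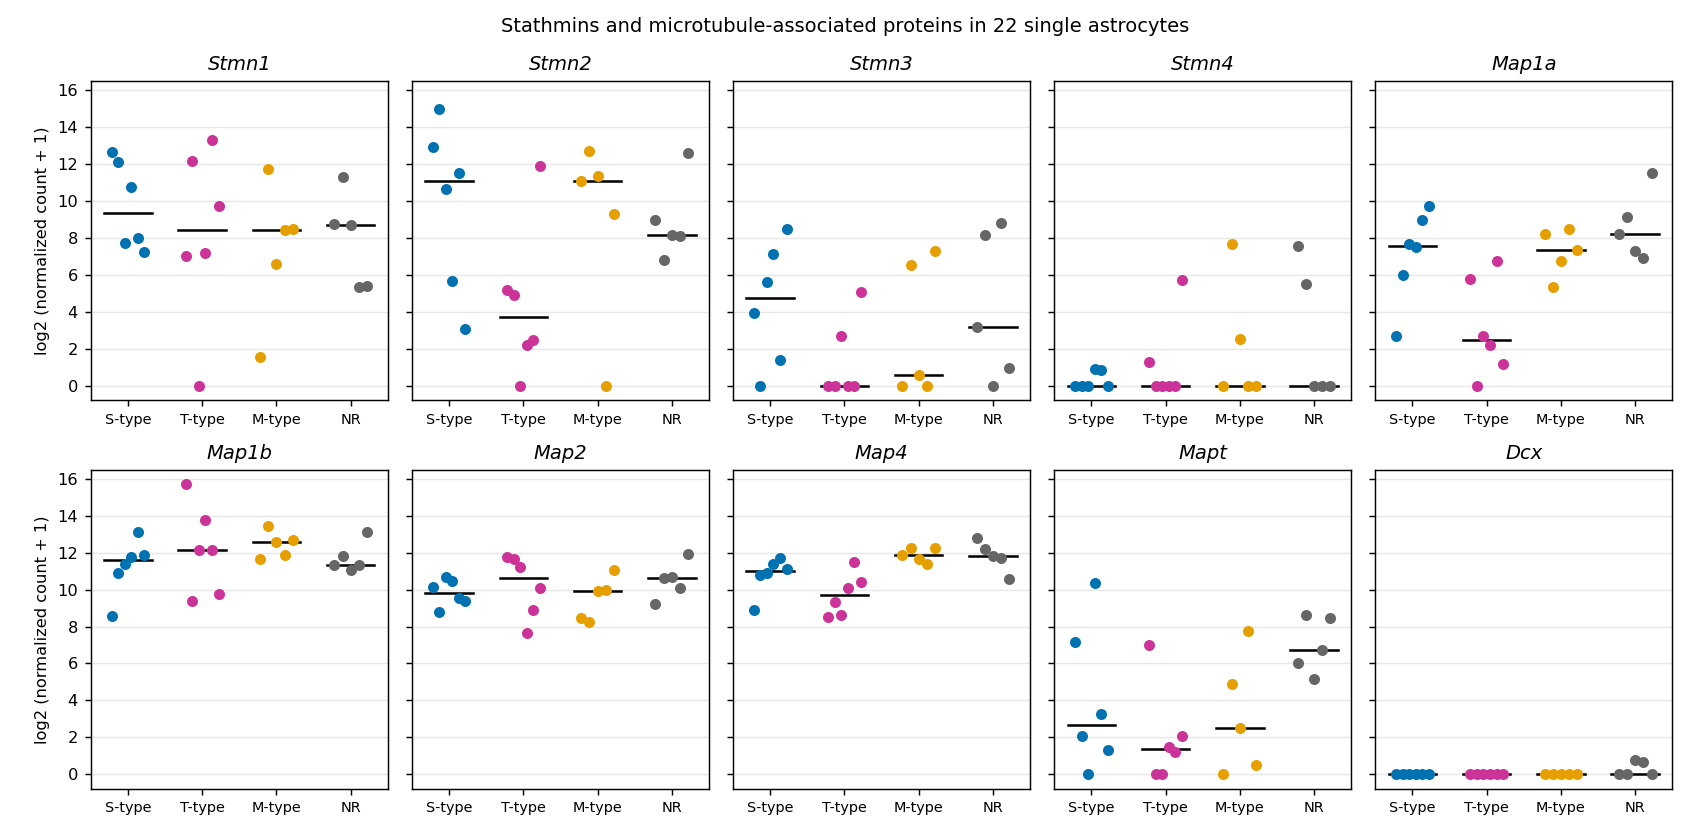
Each panel plots 1 gene, each point 1 cell, with the response type on the x axis, log2 of the normalized count plus 1 on the y axis and a line at the median of the type. Map1b, Map2 and Map4 lie above 0 in every cell, the stathmins and Mapt spread from 0 to high values within a type, and Dcx lies at or near 0 throughout.

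The members differed in how evenly the cells carried them. The standard deviation over cells of log2 of the normalized count plus 1 was 1.16 for Map2, 1.23 for Map4 and 1.53 for Map1b, and it was 4.44 for Stmn2, 3.39 for Stmn1, 3.36 for Mapt, 3.34 for Stmn3 and 2.94 for Map1a. The cell with most Stmn2 held 47.0% of its normalized counts over the 22 cells, that with most Mapt held 46.5%, and that with most Map4 held 12.3%. A single cell held over 50% of the normalized counts for 0 of the 9 members that passed the filter and for 19% of all genes that passed. For each of the 10 genes, types next to each other in the order of levels overlapped over their cells.

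**Figure D2:**
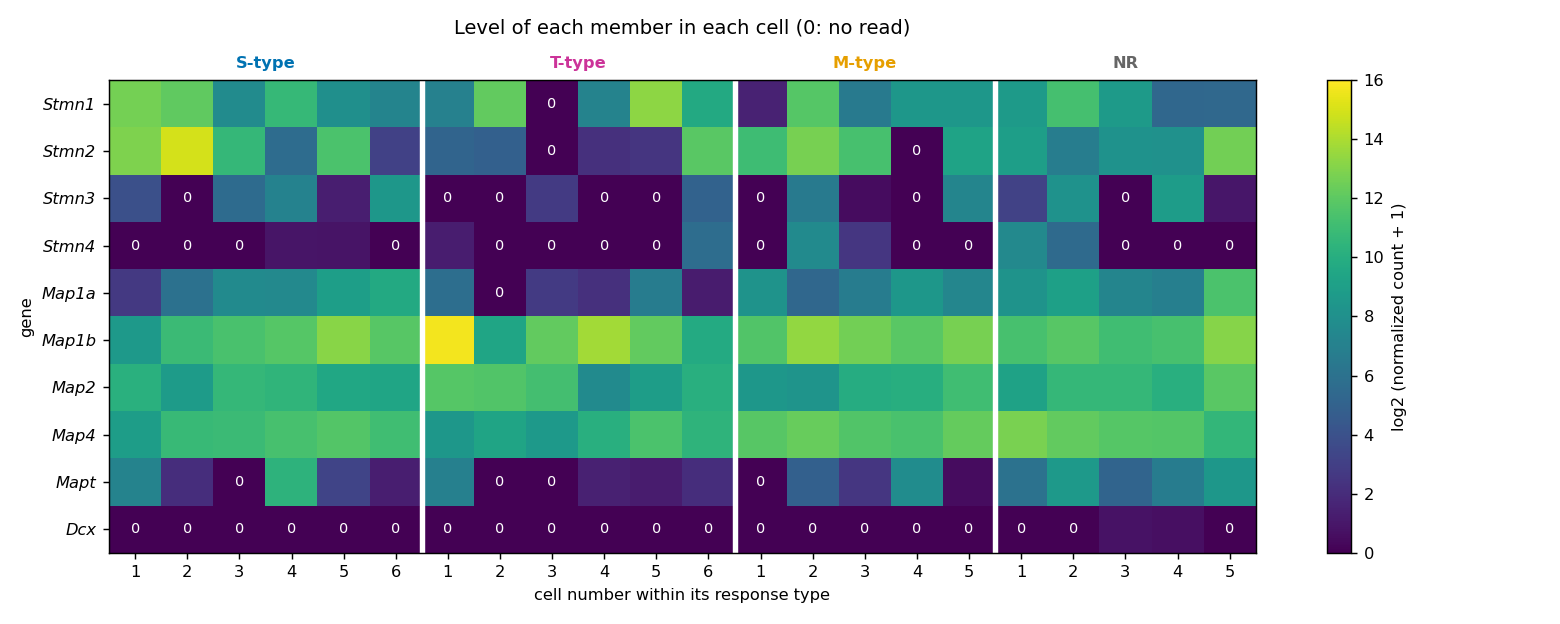
Rows are the 10 genes and columns the 22 cells, grouped by response type and numbered within it, and the colour gives log2 of the normalized count plus 1, with 0 written where a gene had no read. The brightest squares are Map1b in T-type cell 1 (53304 normalized counts) and Stmn2 in S-type cell 2 (31627), and the row of Dcx is dark in all cells.

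Stmn1, the widely expressed stathmin, was highest in T-type and S-type. Over the 6 S-type cells the lowest, median and highest values were 148, 981 and 6358 normalized counts, and over the 6 T-type cells 0, 489 and 9911. Values in M-type cells 1 to 5 were 1.88, 3448, 94.7, 348 and 353. Values in NR cells 1 to 5 were 422, 2536, 420, 39.5 and 40.8. In every type 1 or a few cells stood high over the rest, and the 5 highest of all were T-type cell 5 (9911), S-type cell 1 (6358), T-type cell 2 (4515), S-type cell 2 (4452) and M-type cell 2 (3448). The type levels were 2589 for T-type, 2188 for S-type, 849 for M-type and 692 for NR. The S-type level was 3.16 times the NR level (log2 ratio 1.66, 95% counting interval 1.62 to 1.71), and the T-type level was 3.74 times the NR level (1.90, 1.86 to 1.95). S-type cells were the higher in 20 of the 30 pairs of an S-type and an NR cell, and T-type cells in 18 of 30. Without S-type cell 1 the log2 ratio of S-type over NR was 0.97, without NR cell 2 it was 3.25, and without S-type cells 1 and 2 together it was -0.25. The log2 ratio of T-type over NR was 0.70 without T-type cell 5 and 3.49 without NR cell 2. T-type over S-type had a log2 ratio of 0.24 (0.21 to 0.27) that took its sign from single cells, at -0.96 without T-type cell 5, 0.93 without S-type cell 1 and 2.16 without S-type cells 1 and 2.

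Stmn1 was set beside the cell cycle lists because stathmin is known from dividing cells. The 3 cells with the largest share of reads on 43 S phase genes were S-type cell 2 (1.30%), T-type cell 5 (1.03%) and S-type cell 1 (0.576%), and all of them had high Stmn1. Of the 5 cells highest in S phase share 4 were among the 5 highest in Stmn1. T-type cell 2 had the lowest S phase share of all (0.0306%) and the third highest normalized count of Stmn1 (4515), at a size factor of 0.276. In CPM (counts scaled to the total reads of each cell) its Stmn1 was 99.1. That was below NR cell 2 (251) and S-type cell 4 (160), which it exceeded in normalized counts. The high place of T-type cell 2 in Stmn1 thus depended on the scaling. Over the 22 cells log2 of Stmn1 and log2 of the S phase share had a Pearson r of 0.48 and a Spearman rho of 0.26, and r was 0.28 without the 2 cells farthest from the median share. Both measures come from the same libraries. The G2/M share gave an r of 0.34 and a rho of 0.26. S-type cells 1 and 2, which had the 2 largest summed shares of cell cycle reads in S-type, also held 82.3% of the S-type normalized counts of Stmn1, and the part of the cell cycle in the ratio was not tested.

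Stmn2, known as SCG10 and attached to membranes in growing axons, had the widest spread and was highest in S-type. The 6 S-type cells ran from 7.42 over a median of 2251 to 31627 normalized counts, and the 6 T-type cells from 0 over 16.8 to 3835. The M-type cells 1 to 5 had 2133, 6675, 2639, 0 and 627. The NR cells 1 to 5 had 501, 110, 285, 275 and 6127. Thus 5 T-type cells lay at or under 35.2, below every NR cell, and T-type cell 6 was the only T-type cell of the high range. The level was 7330 in S-type (44354 reads, exact Poisson 95% interval 43942 to 44769), 2415 in M-type, 1459 in NR and 651 in T-type. T-type was 11.3 times lower than S-type (log2 ratio -3.49, counting interval -3.53 to -3.45) and S-type was 5.02 times NR (2.33, 2.29 to 2.36). The log2 ratio of T-type over S-type was -1.92 without S-type cell 2 and -8.98 without T-type cell 6, and without S-type cells 1 and 2 together it was -0.81, inside 2-fold. The log2 ratio of S-type over NR was 0.76 without S-type cell 2, 4.65 without NR cell 5 and -0.36 without S-type cells 1 and 2. T-type over NR, at -1.16, turned to 1.15 without NR cell 5 and went to -6.66 without T-type cell 6. It was -0.76 in CPM (counts scaled to the total reads of each cell) and then no longer past 2-fold.

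Cells with much Stmn2 differed widely in neuron marker reads. S-type cell 2 had 29179 reads of Stmn2 and the smallest share of neuron marker reads of all cells (0.00272%). In it 374 of the 387 neuron marker reads fell on Uchl1, Gap43 had 8 and Tubb3 none. S-type cell 1 had 8778 reads of Stmn2, and apart from 476 reads of Uchl1 and 285 of Gap43 it held 1 read over the other 16 markers. T-type cell 6 had 5987 reads of Stmn2 and none of Tubb3 or Gap43. M-type cell 2, with 9533 the next highest in reads of Stmn2 after S-type cell 2, was also rich in neuron marker reads, with 3073, of which 2453 fell on Gap43 and 225 on Tubb3. NR cell 5 had 6609 reads of Stmn2 and 1538 of neuron markers, with 422 on Uchl1, 300 on Gap43, none on Tubb3 and 816 on the other 15 markers. NR cell 2, with 8227 neuron marker reads the highest of all cells and 454 of them on Snap25, had 194 reads of Stmn2. Over the 22 cells log2 of Stmn2 and log2 of the neuron share had an r of -0.17 and a rho of -0.15, and r was -0.076 without the 2 cells farthest from the median share. S-type cell 2 also had the smallest share of astrocyte marker reads of all cells (0.546%).

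Stmn3 and Stmn4, both best known from neurons, were low and patchy. Stmn3 ran from 0 over a median of 30.9 to 352 normalized counts over the S-type cells and from 0 over 0 to 32.02 over the T-type cells. Over M-type cells 1 to 5 it was 0, 92.4, 0.469, 0 and 155.5, and the NR cells had 7.89, 280, 0, 450 and 0.927. T-type thus stayed below the high values of the other types, with 51 reads of Stmn3 in all, of which 50 came from cell 6. The T-type level of 6.25 was 14.8 times lower than the S-type level of 92.2 (log2 ratio -3.88, -4.32 to -3.47) and 23.7 times lower than the NR level of 148 (-4.57, -5.00 to -4.16). Without S-type cell 6 the former was -2.68 and without T-type cell 6 it was -6.40, whereas the latter was -3.53 without NR cell 4 and -7.08 without T-type cell 6. M-type over NR was -1.57, and -0.54 without NR cell 4 or -2.67 without M-type cell 5.

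Stmn4 was read in 2 cells of each type. It reached 200 normalized counts in M-type cell 2, 188 in NR cell 1, 52.5 in T-type cell 6 and 44.8 in NR cell 2, and it stayed at or under 4.69 elsewhere. S-type had 2 reads in all (exact Poisson 95% interval 0.242 to 7.22), NR had 388, M-type 296 and T-type 83. The log2 ratio of S-type over NR was -7.39, with a counting interval of -10.4 to -5.53 that the 2 reads make wide. That of T-type over S-type was 5.02 (3.12 to 8.09), with 82 of the 83 T-type reads in cell 6. Without NR cell 1 the log2 ratio of S-type over NR was -5.34 and that of T-type over NR moved from -2.37 to -0.32. Without S-type cell 4 or 5, which held its 2 reads, S-type over NR was -8.21 or -8.05 and T-type over S-type was 5.84 or 5.68. Without T-type cell 6 the log2 ratio of T-type over NR was -7.37.

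Among the stathmins, Stmn1 led per kb in 12 cells, Stmn2 in 7 and Stmn3 in 3, with either measure of length. In T-type cell 3, the smallest library, the lead of Stmn3 rested on 1 read, and the other stathmins had none there. Stmn2 made up 99.7% of the summed stathmin level per kb in M-type cell 1, 98.0% in NR cell 5, 90.04% in M-type cell 3, 79.5% in S-type cell 5, 70.9% in S-type cell 2 and 65.5% in S-type cell 3. It made up 0.0157% in T-type cell 5 and 0.220% in T-type cell 2, the T-type cells with most Stmn1. Cells of the same response type thus used different stathmins, and no type had a single leading stathmin in all its cells. Over the 22 cells log2 of Stmn1 and log2 of Stmn2 had an r of 0.19 and a rho of 0.19.

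Map1b, the large MAP of growing axons that is made early in development, was the most read member, with 166209 reads over the 22 cells. The S-type cells ran from 381 over a median of 3087 to 8951 normalized counts, and the T-type cells from 671 over 4491 to 53304. In M-type cells 1 to 5 it came to 3240, 11048, 6195, 3785 and 6639. Over NR cells 1 to 5 it was 2603, 3634, 2170, 2548 and 8917. T-type cell 1 alone made up 68.6% of the T-type level, T-type cell 4 was next with 13862, and the other T-type cells lay within the range of NR or below it. The levels were 12949 for T-type, 6181 for M-type, 3974 for NR and 3527 for S-type. T-type was 3.67 times S-type (log2 ratio 1.88, 1.86 to 1.90) and 3.26 times NR (1.70, 1.68 to 1.72). Without T-type cell 1 these log2 ratios were 0.47 and 0.30. M-type exceeded NR in 20 of 25 pairs of cells, at a log2 ratio of 0.64 (0.62 to 0.66) that was 1.17 without NR cell 5. T-type cell 1 also had the highest Tubb3 of all cells (2208 normalized counts). Apart from Uchl1, Gap43 and Tubb3, it held 596 reads over the other 15 neuron markers. None of these fell on Snap25, which had no read in most cells. Over the 22 cells log2 of Map1b and log2 of the neuron share had an r of 0.45 and a rho of 0.49, and r was 0.61 without the 2 cells farthest from the median share.

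Map1a, the relative of Map1b that prevails in mature neurons, was the only member for which 2 types did not overlap in the 4 comparisons made. The T-type cells ran from 0 over a median of 4.55 to 104 normalized counts, and the S-type cells from 5.33 over 190 to 857. Values in M-type cells 1 to 5 were 294, 39.9, 105, 361 and 160. In NR cells 1 to 5 it came to 299, 552, 156.05, 120.2 and 2873. Every T-type cell lay below every NR cell, with the highest T-type value (104, cell 5) close to the lowest NR value (120.2, cell 4). The T-type cells also lay below the NR cells in CPM, at most 8.35 against at least 10.7. The T-type level of 28.0 was 28.5 times lower than the NR level of 800 (log2 ratio -4.84, -5.04 to -4.63) and 10.7 times lower than the S-type level of 301 (-3.43, -3.64 to -3.22). T-type over NR stayed at or under -3.33, its value without NR cell 5, and reached -5.97 without T-type cell 5. T-type over S-type was -2.76 without S-type cell 6 and -4.56 without T-type cell 5.

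NR cell 5 made up 71.8% of the NR level of Map1a. S-type over NR, at -1.41 (-1.48 to -1.34), was 0.095 without that cell and -2.07 without S-type cell 6, and M-type over NR, at -2.06 (-2.14 to -1.98), was -0.55 without it. Exons of Map1a overlap those of Ppip5k1 on the opposite strand. Whether the counting used the strand is not given in the sources used here, so that reads in the overlap cannot be told apart. Ppip5k1 had 2633 reads of its own and Map1a 9397.

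Map2, the MAP of dendrites, was the only one of the 9 members inside 2-fold in all 4 comparisons with all cells included. The S-type cells ran from 438 over a median of 937 to 1621 normalized counts, and the T-type cells from 201 over 1729 to 3468. The M-type cells 1 to 5 had 353, 307, 964, 1024 and 2166. Values in NR cells 1 to 5 were 605, 1586, 1626, 1103 and 3877. The types overlapped over most of their ranges, and none of the 4 comparisons reached a 2-fold difference. The log2 ratios were 0.84 for T-type over S-type, -0.81 for S-type over NR, 0.03 for T-type over NR and -0.87 for M-type over NR. Leaving out 1 cell took 3 of them past 2-fold, T-type over S-type to 1.08 without T-type cell 4, S-type over NR to -1.03 without NR cell 1 and M-type over NR to -1.41 without M-type cell 5. T-type over S-type was sensitive to the scaling and came to -0.02 in CPM, and T-type over NR then came to -0.66. Gm10558, an antisense gene at this locus, has no row of its own in the table.

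Map4, the MAP best known outside neurons, was high in M-type and NR and low in T-type. The S-type cells ran from 484 over a median of 2047 to 3309 normalized counts, and the T-type cells from 360 over 861 to 2858. Over M-type cells 1 to 5 it was 3731, 4905, 3187, 2697 and 4802. The NR cells 1 to 5 had 7189, 4606, 3567, 3376 and 1531. In 1 of the 30 pairs of a T-type and an NR cell was the T-type cell the higher, and 5 of the 6 T-type cells lay below every NR cell. The level was 4054 for NR, 3864 for M-type, 2046 for S-type and 1111 for T-type. T-type was 3.65 times lower than NR (log2 ratio -1.87, -1.90 to -1.83), and leaving out each cell in turn gave -2.41 to -1.56. S-type was 1.98 times lower than NR (-0.99, -1.01 to -0.96), just inside the 2-fold limit, and without S-type cell 5 the log2 ratio was -1.18. M-type over NR was -0.07 (-0.09 to -0.05).

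The level of Map4 moved with the size factor of the cell. Over the 22 cells log2 of Map4 and log2 of the size factor had an r of 0.76 and a rho of 0.73, and r was 0.68 without the 2 cells farthest from the median factor. In CPM, which does not use the size factors, r was 0.81 and rho 0.78. The 4 T-type cells with size factors of 0.183 to 0.710 had 360 to 1084 normalized counts of Map4, and the 2 with factors of 1.54 and 1.56 had 2858 and 1341. Map1a gave an r of 0.60 and a rho of 0.43 with the size factor, and without T-type cells 2 and 3 these were 0.34 and 0.27. The 2 genes share library and depth in these values, and the part of the size factor in the T-type levels was not tested.

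Mapt, the tau gene, was read in all 5 NR cells and was patchy elsewhere. The S-type cells ran from 0 over a median of 5.94 to 1304 normalized counts, and the T-type cells from 0 over 1.56 to 127. In M-type cells 1 to 5 it came to 0, 28.7, 4.69, 218 and 0.432. Over NR cells 1 to 5 it was 65.0, 399, 35.2, 105 and 355. Below the lowest NR value of 35.2 lay 5 of the 6 T-type, 4 of the 6 S-type and 4 of the 5 M-type cells. The levels were 243 for S-type, 192 for NR, 50.4 for M-type and 22.2 for T-type, and the S-type level rested to 89.4% on cell 4. T-type was 8.66 times lower than NR (log2 ratio -3.11, -3.42 to -2.82), and -7.25 without T-type cell 1. M-type was 3.81 times lower than NR (-1.93, -2.08 to -1.78), and -4.50 without M-type cell 4. S-type over NR moved from 0.34 to -2.63 without S-type cell 4. T-type over S-type moved from -3.46 to -0.49 without the same cell and to -7.59 without T-type cell 1. In CPM T-type over NR was -3.91 and T-type over S-type -4.39. The neuron share and Mapt had an r of 0.42 and a rho of 0.36 over the 22 cells.

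Dcx, doublecortin, the MAP of migrating neuroblasts, had 1 read in NR cell 3 and 1 in NR cell 4 and none in the other 20 cells. A count of 0 over a type allows up to 3 reads, which is a level of 0.402 normalized counts for S-type, 0.622 for T-type and 0.319 for M-type, and the NR level was 0.263. At this depth no difference between types was detectable and no ratio was formed. Among 14 neuroblast markers Dlx5 and Dlx6 had no read, and the most read ones, Cd24a, Ncam1 and Nrep, were read in 22, 22 and 19 cells.

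**Figure D3:**
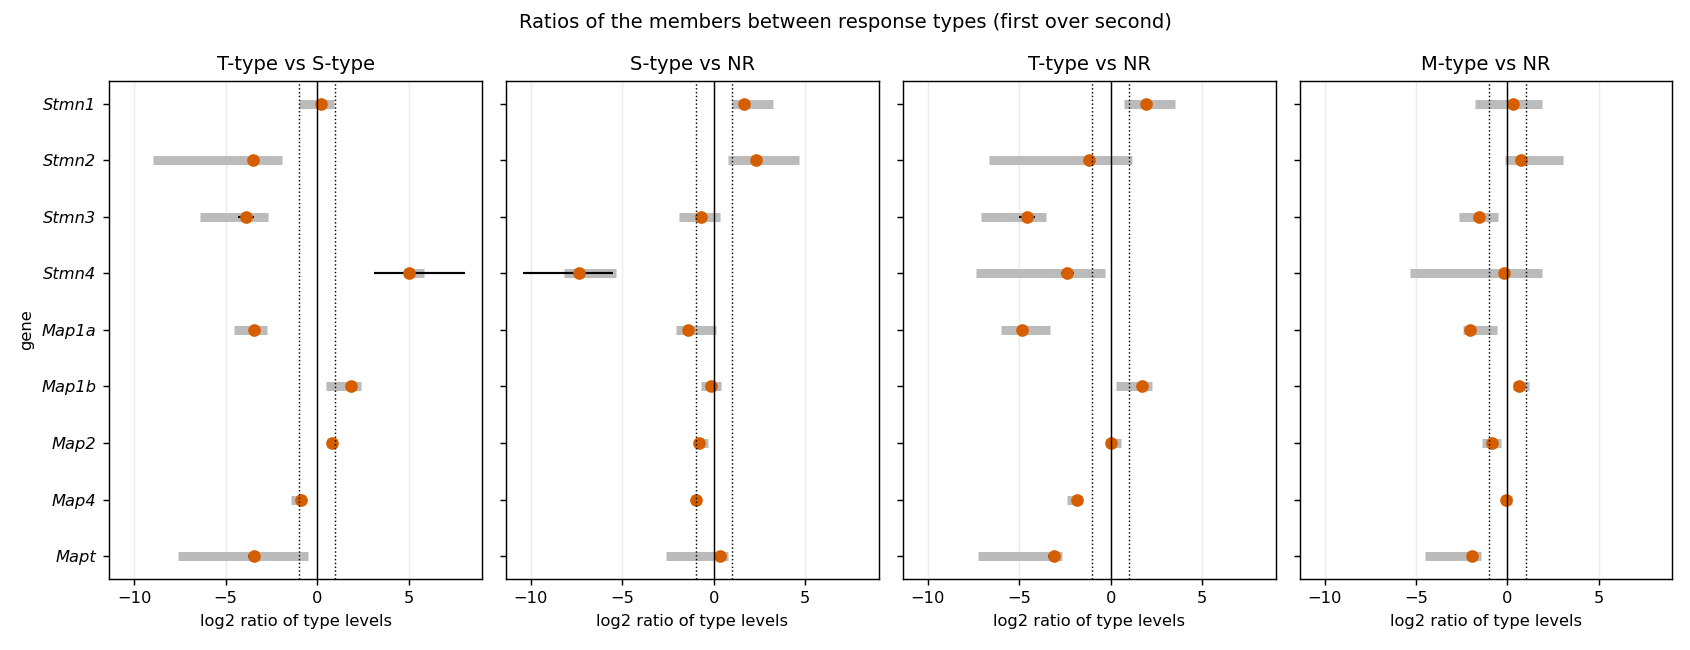
Each panel is 1 comparison of 2 response types, with the log2 ratio of the first over the second type on the x axis and the gene on the y axis. Points are the ratios, black lines the 95% counting intervals, grey bars the range when each cell is left out in turn, dotted lines 2-fold, and Dcx is not drawn since it had no ratio. The grey bars are wider than the counting intervals for most genes. In T-type over NR, Stmn3, Map1a, Map4 and Mapt lie past 2-fold over their whole bars. So do Stmn2, Stmn3, Stmn4 and Map1a in T-type over S-type, Stmn4 in S-type over NR and Mapt in M-type over NR. Stmn4 in T-type over S-type had no ratio without T-type cell 6.

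Set together, 9 of the 10 genes had a ratio, and the number past 2-fold was largest in T-type over NR. There 2 genes were at least 2-fold higher (Stmn1 and Map1b) and 6 at least 2-fold lower (Stmn2, Stmn3, Stmn4, Map1a, Map4 and Mapt), beside 28.4% and 32.8% of all 12508 genes with a ratio. For 1 of the 9 (Map1a) the values of T-type and NR cells lay apart, beside 1.01% of all. In T-type over S-type 2 were higher (Stmn4 and Map1b) and 4 lower (Stmn2, Stmn3, Map1a and Mapt), beside 25.7% and 32.5% of all 12517 genes. In S-type over NR 2 were higher (Stmn1 and Stmn2) and 2 lower (Stmn4 and Map1a), beside 25.1% and 22.5%. In M-type over NR 0 were higher and 3 lower (Stmn3, Map1a and Mapt), beside 19.8% and 28.1%. Cells did not overlap for 0 of the 9 genes in T-type over S-type, S-type over NR and M-type over NR, beside 0.783%, 0.412% and 0.602% of all genes. The comparisons with NR share the NR cells, and T-type and S-type each stand in 2 of the 4 comparisons.

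The median log2 ratio of the 9 genes was -1.87 in T-type over NR, where that of all genes was -0.07. It was -0.88 in T-type over S-type (all genes -0.09), -0.68 in S-type over NR (all genes 0.03) and -0.18 in M-type over NR (all genes -0.20). The scaling moves the base of these values, since in mean CPM the median of all genes was -0.46 in T-type over NR and -0.46 in T-type over S-type. Counted from the all-gene median of the same scaling, that of the members in T-type over NR was -1.80 with size factors and -1.65 in CPM. Leaving out each cell in turn gave medians of -2.89 (without T-type cell 6) to -1.38 (without NR cell 1) in T-type over NR and of -0.93 to 0.095 in S-type over NR, the latter without NR cell 5. In M-type over NR they ran from -1.78 without M-type cell 2 to 0.16 without NR cell 1, and the number past 2-fold rose from 3 to 5 without either of these cells. In T-type over S-type they ran from -2.06 without T-type cell 6 to -0.49 without S-type cell 4.

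A list of 57 further microtubule regulators gives the members their setting. It holds other MAPs, proteins that track or cap the ends of microtubules, severing enzymes, enzymes that modify tubulin, and kinases that act on stathmins or MAPs. In T-type over S-type 10 of the 52 with a ratio were at least 2-fold higher and 20 lower, with a median log2 ratio of -0.55. In S-type over NR 16 of 52 were higher and 7 lower (median 0.18), in T-type over NR 12 of 50 higher and 16 lower (median -0.05), and in M-type over NR 9 of 50 higher and 13 lower (median -0.22). Of the 12 other MAPs that bind the microtubule wall, 6 of 11 with a ratio were at least 2-fold lower and 2 higher in T-type than in S-type, beside 32.5% and 25.7% of all genes. In S-type over NR 5 of 11 were higher and 0 lower, beside 25.1% and 22.5%. In T-type over NR 2 of 10 were higher and 6 lower, and in M-type over NR 3 of 10 were higher and 2 lower, beside 28.4% and 32.8% and beside 19.8% and 28.1%. Other roles on the list differed among themselves in T-type over NR. Of the proteins that track plus ends 4 of 10 were higher and 2 lower. Of the MAP1 light chain 3 genes 2 of 2 and of the dynein regulators 2 of 3 were higher. Among the kinases 1 of 7 was higher and 4 lower, and among the severing enzymes 1 of 6 was higher and 2 lower. In each remaining role 0 were higher and at most 1 lower.

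The regulators that stood furthest apart included several of these MAPs. Map10 had no read in T-type, which put it at least 385-fold lower than in S-type and at least 228-fold lower than in NR (the floor being 3 reads over the type). Without S-type cell 2 the former bound moved to a log2 ratio of -3.36, and without NR cell 2 the latter moved from -7.83 to -5.99. Mtus2 associates with microtubule plus ends but was counted above among the MAPs of the microtubule wall. It had 1 read in T-type and 638 in S-type (log2 ratio -9.38, counting interval -14.7 to -6.89) and 78 in NR (T-type over NR -6.46, -11.8 to -3.94). That 1 T-type read of Mtus2 lay in cell 6. Without this cell T-type had no read, and the floor of 3 reads put bounds of -6.27 and -3.35 on these log2 ratios. Mtus2 was also 7.57 times higher in S-type than in NR, at a log2 ratio of 2.92 that was 1.35 without S-type cell 3, and 9.39 times higher in M-type, at 3.23 that was 1.77 without M-type cell 5. Map10 was 20.9 times lower in M-type than in NR, at -4.38 that was -2.54 without NR cell 2 and -9.66 without M-type cell 5. Map7d2 was 112 times lower in T-type than in S-type on 5 reads, and its relative Map7, which brings kinesin to microtubules, was 68.0 times lower in T-type than in NR on 4 reads. The log2 ratio of Map7d2, -6.81, was -5.59 without S-type cell 5 and -8.65 without T-type cell 1, and that of Map7, -6.09, was -5.40 without NR cell 1 and -8.55 without T-type cell 2. Map6, which stabilizes microtubules against cold, was 5.74 times higher in S-type than in NR, and without S-type cell 2 the log2 ratio moved from 2.52 to 1.47.

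Cdk5r1, the p35 activator of the kinase Cdk5, which phosphorylates tau and other MAPs, was 18.02 times lower in S-type and 21.8 times lower in M-type than in NR, and it was 17.7 times higher in T-type than in S-type. The first log2 ratio, -4.17, was -3.00 without NR cell 1 and -6.70 without S-type cell 5. The second, -4.45, was -3.28 without NR cell 1 and -9.26 without M-type cell 2. The last, 4.15, was 2.13 without T-type cell 6 and 6.68 without S-type cell 5. Fignl1, an ATPase related to the severing enzyme fidgetin, was 37.8 times higher in S-type than in NR, at a log2 ratio of 5.24 that was 4.65 without S-type cell 1 and 6.07 without NR cell 3. It was 5.12 times higher in M-type than in NR, at 2.36 that was 1.42 without M-type cell 3 and 3.18 without NR cell 3. Its T-type over NR ratio rested on 1 cell and went from a log2 value of 5.53 to -2.82 without T-type cell 5. Nde1, a regulator of dynein, was 6.82 times higher in T-type than in NR, with a log2 ratio of 2.77 that was 1.03 without T-type cell 2.

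For most of the other ratios named by size a single cell set the direction, and for Agtpbp1 in M-type over NR a single cell took it inside 2-fold. Agtpbp1, which trims glutamates from tubulin, was 2.72 times lower in S-type and 7.36 times lower in M-type than in NR, and without NR cell 5 the log2 ratios moved from -1.44 to 1.30 and from -2.88 to -0.14. Dclk2, a kinase related to doublecortin, was 2.96 times lower in S-type than in NR, at -1.57 that turned to 0.35 without NR cell 2. Map1lc3b, a light chain 3 gene whose protein was first found with the MAP1 proteins and serves in autophagy, was 4.42 times higher in T-type than in S-type, at 2.14 that turned to -0.17 without T-type cell 2. Map1lc3a was 3.29 times higher in M-type than in NR, at 1.72 that turned to -0.52 without M-type cell 1. Mtus1 was 5.78 times higher in T-type than in NR, at 2.53 that turned to -2.26 without T-type cell 2.

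**Figure D4:**
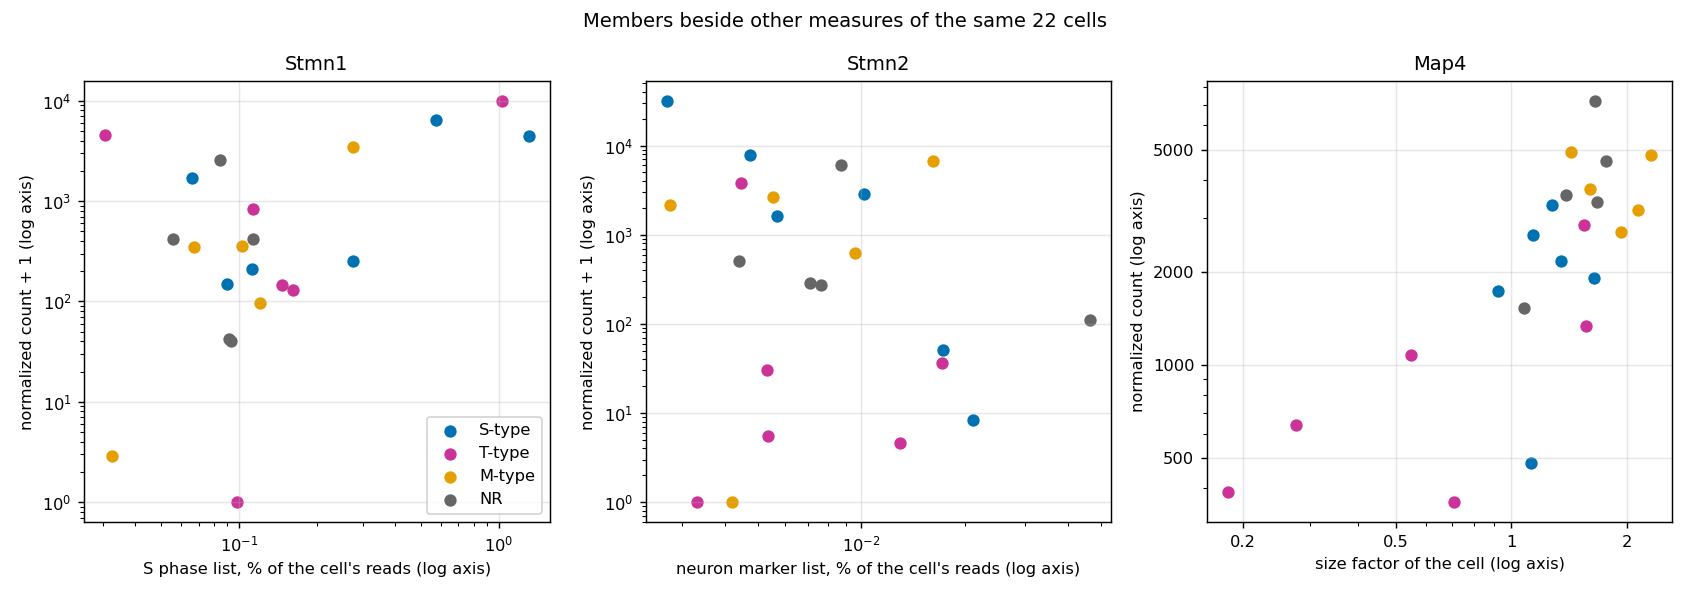
Each point is 1 of the 22 cells, coloured by response type, on log axes. The left panel plots Stmn1 (normalized count plus 1) against the percent of reads on S phase genes, the middle one Stmn2 (normalized count plus 1) against the percent on neuron markers, and the right one Map4 (normalized count) against the size factor. The 3 cells with over 0.5% of S phase reads have at least 4452 of Stmn1, the cell with most Stmn2 has the smallest neuron share, and Map4 is low where the size factor is low.

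The members did not move as a unit over the cells. Among the 7 members taken into the correlations, Map1a and Map4 had the largest r (0.61, rho 0.49) and Map2 and Map4 the lowest (-0.40, rho -0.36), as values of log2 of the normalized count plus 1 over the same 22 libraries. Stmn1 and Map1b had an r of -0.33 and a rho of -0.41. A search over 6602 genes read in at least 20 cells gave the genes whose pattern was most like that of each member, by Pearson r over the 22 cells. Stmn1 was most like Hat1, a histone acetyltransferase (r 0.87, rho 0.84), then Wbscr27 (0.85, rho 0.76) and Nbl1 (0.81, rho 0.81). Stmn2 had the weakest partners, Dnmbp (0.71, rho 0.65), Efcab7 (0.69, rho 0.66) and Prps2 (0.68, rho 0.73). Map1a was most like Pip4k2b (0.81, rho 0.78), Plxna2 (0.79, rho 0.55) and Zc3h11a (0.79, rho 0.71). Map1b was most like Yaf2 (0.86, rho 0.82), Neto2 (0.84, rho 0.71) and Pop5 (0.81, rho 0.64). Map2 was most like Agtpbp1 (0.76, rho 0.78), the tubulin-trimming enzyme of the list of regulators, then Zmat3 (0.74, rho 0.67) and Cst3 (0.72, rho 0.61). Map4 was most like Ublcp1 (0.82, rho 0.70), Tssc1 (0.81, rho 0.79) and Zfp512 (0.81, rho 0.71). These values are the highest of many and carry no test.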

How the data were processed

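Each library held the RNA of 1 astrocyte, grouped by the response label (6 S-type, 6 T-type, 5 M-type, 5 NR), which matched the response row of the table for 22 of 22 columns. The authors amplified the RNA in 2 rounds, sequenced stranded libraries as paired reads, mapped these to GRCm38 using STAR and deposited raw exonic read counts per gene symbol and cell, made with VERSE and not normalized. Versions and the strand setting are not given in the sources used here, and there were no molecular identifiers. The intervals therefore cover the counting error of reads only. They take reads as independent, which reads amplified from the same RNA molecule are not, and so they do not give the precision for RNA molecules.

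Normalization used the median of ratios over the genes read in every cell. Comparisons took only genes read in at least 5 cells, 3 reads per type stood in for a level of 0, and no ratio was formed where both types had at most 3 reads. Since each type is 1 sample, the types were not tested against each other, and Dixon's test was used only to mark cells far from the rest of their type. Intervals were at 95%, exact Poisson for counts and Clopper-Pearson for the split of the pooled reads between 2 types. The latter was rescaled to the ratio of levels, and is approximate for that ratio where cells differ in size factor. A 2-fold difference was the size limit. Positions and lengths came from GENCODE vM21. The members and lists were chosen with earlier results of these data known. Of the regulators, in each comparison and direction the 3 with the largest ratio at a mean level of at least 10 are named; of each marker and cell cycle list, the 3 with most reads or those with none, where a result touches them; and per member read in at least 20 cells, the 3 genes with the highest r. A result that these rules would name is not reported here. Snap25 and the cells singled out were chosen after their values were seen.

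Alternatives were TMM factors (edgeR 4.0.16, R 4.3.3), mean CPM, cells thinned to 2937786 reads, a pseudocount of 1, no filter, leaving out each cell, leaving out the 2 S-type cells with most cell cycle reads, detection from 5 reads and, added after the data were seen, another gene length. The steps were tested on simulated data. Python 3.11.15, NumPy 2.4.6, pandas 2.3.3, SciPy 1.17.1 and matplotlib 3.10.9 were used. The calcium recordings were not used here.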

Additional observations from a re-analysis of the deposited data

Results flagged for a closer look

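In 37 sets of the cells of 1 type and 1 member, Dixon's test at the 95% level marked 4 cells as far from the rest. It was run on log2 of the normalized count plus 1, and the values below are normalized counts. A rate of 1 in 20 gives 1.85. That rate holds for independent sets of normal values, and these sets share their cells. Stmn2 in M-type cell 4 had 0 normalized counts, where the other M-type cells had 627 to 6675. Map4 in S-type cell 1 had 484, where the other S-type cells had 1742 to 3309. Stmn4 in T-type cell 6 had 52.5, where the other T-type cells had 0 to 1.41, and this cell also held nearly all T-type reads of Stmn2 and Stmn3. Mapt in T-type cell 1 had 127, where the other T-type cells had 0 to 3.20, and this cell also held the most Map1b of all cells.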

How the results depend on the processing

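Of the 21 member ratios past 2-fold, all 21 stayed past it in the same direction with TMM factors, with thinned cells, with a pseudocount of 1 and without the filter, and 20 did so in mean CPM. The exception was T-type over NR of Stmn2. Leaving out the 2 S-type cells with most cell cycle reads kept 6 of 10 and turned 2, S-type over NR of Stmn1 to -0.25 and of Stmn2 to -0.36, while T-type over S-type of Stmn2 (-0.81) and S-type over NR of Map1a (-0.88) fell inside 2-fold. Leaving out single cells kept 217 of 233 and turned 2, both without NR cell 5, S-type over NR of Map1a to 0.095 (range over single cells -2.07 to 0.095) and T-type over NR of Stmn2 to 1.15 (range -6.66 to 1.15).

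The median log2 ratio of the members in T-type over S-type was -0.78 with TMM factors, -1.17 in mean CPM, -1.06 with thinned cells and -0.81 without the 2 S-type cells, and -2.06 to -0.49 when single cells were left out. In T-type over NR it was -1.83 with TMM factors, -2.12 in mean CPM and -2.06 with thinned cells, and -2.89 to -1.38 when single cells were left out. In S-type over NR it was -0.36 without the 2 S-type cells, with 1 member past 2-fold in place of 4, and -0.93 to 0.095 over single cells. In M-type over NR it was -1.78 to 0.16 over single cells. The number past 2-fold over single cells left out was 5 to 8 in T-type over S-type, 3 to 6 in S-type over NR, 6 to 8 in T-type over NR and 2 to 5 in M-type over NR. The cause was not tested. Detection of Mapt fell from 18 to 13 cells with thinned cells or from 5 reads on, and that of Dcx to 0. No paired analysis was made, since no label ties a cell to an animal or a culture. What the numbers in the cell titles stand for, some of which recur across types, is not given.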
